A study of Mus musculus with 12 samples.

Results

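The miRNA content of microglial exosomes was compared between the acute and the sub-acute phase after repetitive mild traumatic brain injury (rmTBI), at 14 days post-injury (DPI) against 3 DPI. The comparison took in the 3 arrays labelled rmTBI 14 DPI and the 3 labelled rmTBI 3 DPI, 6 of the 12 arrays of the series. The other arrays, 3 of sham-operated mice and 3 of 42 DPI, served to estimate the spread between replicates. Every mouse miRNA on the array was read, 1881 in all, and 485 were tested after miR-124-3p was set aside: those detected on all 3 arrays of at least 1 of the 4 groups. According to the methods, the mice were adult C57BL/6 males. Under isoflurane they received 4 closed-head impacts 48 h apart, while sham mice went through the same handling without an impact. The labels give no treatment other than injury to either group. Exosomes were taken from cortex and hippocampus of both sides in the methods, and from the injured hemisphere in the deposited protocol, and were then captured with an antibody to CD11b. CD11b marks microglia and also other myeloid cells, so the label microglial rests on this capture. The labels do not say whether replicates of a group were separate mice or pools, so the p-values measure only the spread between these samples.

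Exosomes are small vesicles of endosomal origin that carry proteins and RNA between cells. A mature miRNA is a short RNA that guides the silencing machinery to mRNAs, mainly through its seed, bases 2 to 8 from the 5′ end. miRNAs with 1 seed form a family with overlapping targets, and miRNAs encoded close together are often cut from 1 primary transcript.

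Levels are given as log2 of the probe signal of a miRNA divided by the 75th percentile of its array, so a level of 0 equals that percentile and a difference of 1 is a 2-fold change. The lowest level that could be measured on every one of the 6 arrays, the floor, was -4.79. Between 326 and 416 miRNAs were detected on the arrays of 3 DPI and between 408 and 474 on those of 14 DPI, and no spot was saturated. Across the miRNAs tested, the pairs of 3 DPI arrays correlated with r from 0.917 to 0.978. At 14 DPI, replicates 2 and 3 correlated with r = 0.996, while replicate 1 reached only 0.888 and 0.878 with them and 0.961 with replicate 3 of 3 DPI. Replicate 1 of 14 DPI lay nearer to the 3 DPI mean than to the mean of its own 2 partners for 370 of the 485 miRNAs, or 76.3%. Results are therefore given with and without this array. It was picked for its nearness to 3 DPI, so values without it are descriptive, and calls without it are no independent support. Replicate 1 of 3 DPI was the only one of the 6 arrays on the slide of the sham arrays, and the comparison was also repeated without it.

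**Figure D1:**
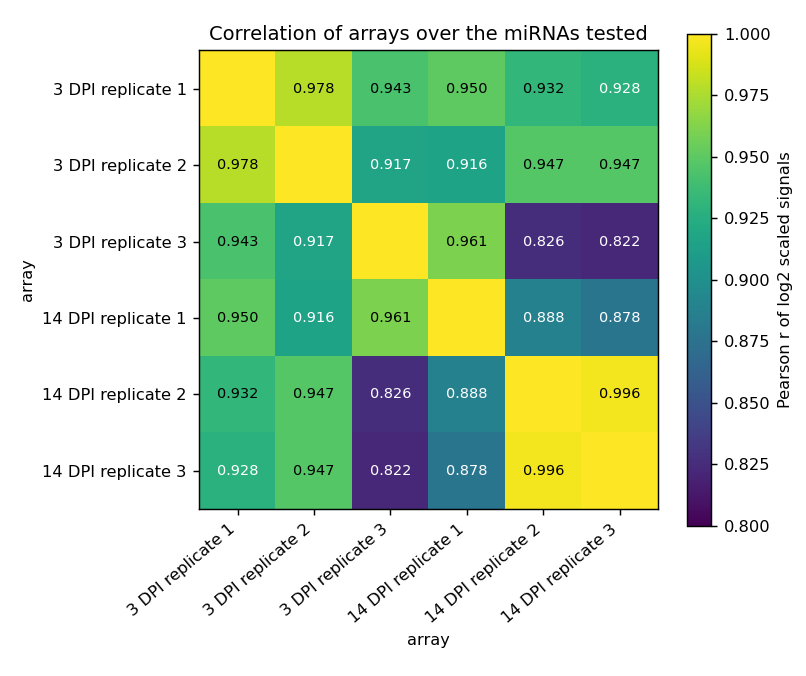
Pearson r of the log2 scaled signals over the 485 miRNAs tested, for each pair of the 6 arrays. Replicates 2 and 3 of 14 DPI form the closest pair (0.996), and replicate 1 of 14 DPI lies closer to replicate 3 of 3 DPI (0.961) than to either of them.

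The mature sequences of the miRNAs that carry the largest differences follow, from RefSeq on GRCm38.p6, with the seed in capitals. Of the 485 miRNAs tested, 418 had a sequence there. The first set holds the 5 miRNAs with the largest differences upward, of which 3 share a run of letters.
miR-5100: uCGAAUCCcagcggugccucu
miR-3963: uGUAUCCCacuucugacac
miR-3968: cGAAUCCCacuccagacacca
miR-6412: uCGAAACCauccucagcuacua
miR-6366: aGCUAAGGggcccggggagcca
The second set holds the epithelial miR-200 family, which holds 2 seeds, with miR-183-5p and miR-96-5p below it.
miR-200c-3p: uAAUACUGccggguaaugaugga
miR-200b-3p: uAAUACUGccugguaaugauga
miR-429-3p: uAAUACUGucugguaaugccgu
miR-200a-3p: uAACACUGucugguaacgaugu
miR-141-3p: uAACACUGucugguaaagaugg
miR-183-5p: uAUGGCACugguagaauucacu
miR-96-5p: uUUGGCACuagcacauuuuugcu

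Between 3 and 14 DPI, miR-5100, miR-6412 and miR-3963, annotated late and without an established role, rose by 1.63, 1.55 and 1.51 on the log2 scale and passed the test. The miR-200 family, miR-183-5p and miR-96-5p were lower at 14 DPI, with differences down to -2.27, without passing it. miR-376a-3p of the Dlk1-Dio3 cluster and the oligodendrocyte miRNA miR-219a-2-3p were higher, by 1.02 and 0.90, also without passing it, while the medians of their lists were 0.25 and 0.44. In the limma fit over all 12 arrays with Benjamini-Hochberg adjustment, 3 of 485 miRNAs were called higher (0.619%) and 0 lower (0%). At an unadjusted p under 0.05, 44 were higher (9.07%) and 48 lower (9.9%). For 22 miRNAs all 14 DPI arrays lay above all 3 DPI arrays (4.54%), and for 35 they lay below (7.22%). The median difference of all miRNAs tested was -0.02. Without any scaling between arrays it was 0.71, and 175 of the 181 miRNAs with an unadjusted p under 0.05 were then higher, so every direction given here is relative to the 75th percentile of its array.

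miR-5100 (chr11:60728698-60728718, plus strand, within the span of Mief2) was at 1.72, 1.36 and 1.39 on replicates 1 to 3 of 3 DPI and at 3.40, 2.98 and 2.98 at 14 DPI. All 14 DPI arrays were far above all 3 DPI arrays, and replicate 1 of 14 DPI, which stood apart elsewhere, was the highest. The difference was 1.63 ± 0.18 (SE), a 3.09-fold rise with an adjusted p of 0.00481 in limma. It was called in 24 of 27 alternatives, with differences from 1.11 to 2.74. Its adjusted p ran from 4.07e-06 to 0.39, pooling the limma fits with the alternative that used the methods' own test. Its level was 1.91, 1.94 and 2.09 in sham mice and 1.79, 2.40 and 2.01 at 42 DPI, so the 14 DPI arrays were above every other array of the series.

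miR-3963 (chr3:151023839-151023857, minus strand, within no other RefSeq gene) was at 3.99, 3.38 and 3.94 at 3 DPI and at 5.54, 5.15 and 5.14 at 14 DPI. Again the groups were clearly apart and replicate 1 of 14 DPI was the highest array. The difference was 1.51 ± 0.21 (SE), a 2.85-fold rise with a limma adjusted p of 0.0101. It was called in 21 of the same 27 alternatives, with differences from 0.72 to 2.62, the smallest being that of the deposited table. Its adjusted p, pooled over limma and the methods' own test, ran from 6.98e-06 to 0.585. Sham arrays held 4.10, 3.84 and 4.03 and the 42 DPI arrays 4.14, 4.77 and 4.41.

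miR-6412 (chr10:122648412-122648433, plus strand, within the span of the lncRNA gene Gm36284) was at the floor of -4.79 on all 3 arrays of 3 DPI, being detected on 1 of them, and at -3.73, -3.12 and -2.86 at 14 DPI. It was at the floor on the sham arrays too, with detection on 0 of 3, and was detected on all 3 arrays of 42 DPI at -3.83, -3.52 and -3.49. The difference from the floor was 1.55 ± 0.19 (SE; limma adjusted p = 0.00636), and its size depends on where the floor lies. With every sham and 3 DPI array at the floor, the SD of these groups was 0, against 0.45 at 14 DPI. The SE and p therefore do not measure the spread of replicates in those groups. With double the floor it was 0.55 and the call was lost (limma adjusted p = 0.379). The call was also lost with normexp background correction (0.00) and with the software's total per miRNA (0.49). Over 26 alternatives its adjusted p, pooled over limma and the methods' own test, ran from 1.83e-07 to 1.

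All 3 calls were also made without replicate 1 of 3 DPI, with differences of 1.75, 1.62 and 1.55 for miR-5100, miR-3963 and miR-6412. With slide as a block the result was the same, and it is no separate check. The slide term rested on replicate 1 of 3 DPI alone, the only one of the 6 arrays on the slide of the sham arrays. Within the slide that holds the 14 DPI arrays, the differences were the same but none passed (limma adjusted p = 0.123, 0.203 and 0.203). None passed either in a fit of the 6 arrays alone (limma adjusted p = 0.126, 0.141 and 0.126).

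miR-3968 (chr11:115447969-115447989, minus strand, within the span of Trim80) had the largest difference of all without passing the test. It was at -3.40, -3.52 and -3.40 at 3 DPI and at -1.74, 0.02 and -0.01 at 14 DPI, with replicate 1 of 14 DPI intermediate. The difference was 2.86 ± 0.54 (SE; limma adjusted p = 0.0564), and without replicate 1 of 14 DPI it was 3.45 with an adjusted p of 0.00461. Over its 27 alternatives the adjusted p, pooled over limma and the methods' own test, ran from 1.94e-09 to 0.665. In the total that the scanner software gives per miRNA the sign was opposite, at -4.27. That total read 1357 to 1924 on the 3 DPI arrays although the software's own totals of its probes summed to between 8.04 and 14.7 there, whereas the sums matched at 14 DPI.

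miR-6366 (chr16:18165093-18165114, minus strand, within no other RefSeq gene) was at 1.12, 0.69 and 1.06 at 3 DPI and at 1.77, 3.43 and 3.53 at 14 DPI. Replicate 1 of 14 DPI lay just above the 3 DPI arrays and the other 2 well above. The difference was 1.95 ± 0.48 (SE; limma adjusted p = 0.0995).

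Of these 5 sequences, 3 held common letters that the selection had not used. miR-5100 and miR-3968 shared the 9-base run CGAAUCCCA, starting at base 2 of the first and base 1 of the second, and it occurred in 2 of 1679 mature mouse miRNAs in RefSeq (0.119%). miR-3963 and miR-3968 shared the 8-base run AUCCCACU, from base 4 in each and likewise in 2 of 1679. The run AUCCCA was common to the 3 and was found, on the mature strand, in 7 of all 1679 (0.417%) and in 3 of the 418 tested (0.718%), which were these 3 miRNAs. The runs were sought after the differences were known, as the longest common to these miRNAs, so their rarity is no test of the set. Probes to sequences this alike may share signal, which was not tested.

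The next 6 miRNAs had the largest differences upward among those with an unadjusted p under 0.05, arrays that did not overlap and detection on at least 2 arrays of each group. miR-376a-3p, of the imprinted Dlk1-Dio3 cluster, was at -1.76, -1.80 and -1.98 at 3 DPI and at -1.44, -0.73 and -0.31 at 14 DPI. miR-219a-2-3p, which promotes oligodendrocyte maturation, was at -2.77, -3.09 and -2.78 and then at -2.54, -1.91 and -1.49. miR-129-2-3p, rich in neurons, was at 0.27, 0.05 and 0.44 and then at 0.55, 1.11 and 1.30. In all 3, replicate 1 of 14 DPI lay close above the 3 DPI arrays and the other 2 arrays carried the difference. The differences were 1.02 ± 0.27, 0.90 ± 0.23 and 0.74 ± 0.18 (SE), with limma adjusted p of 0.105, 0.0995 and 0.0995.

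miR-30b-5p, of the widely expressed miR-30 family, was at -1.64, -1.16 and -1.63 at 3 DPI and at -1.09, -0.44 and -0.41 at 14 DPI. Its highest 3 DPI array and its lowest 14 DPI array nearly met, and the difference was 0.83 ± 0.21 (SE; limma adjusted p = 0.0995). miR-1198-5p, encoded within the span of Gripap1, was at -4.77, -4.34 and -4.42 and then at -3.83, -3.78 and -3.57, all close to the floor. Its difference of 0.79 ± 0.14 (SE) came closest to a call after the first 3 (limma adjusted p = 0.0536). miR-101c differed by 0.75 ± 0.27 (SE; limma adjusted p = 0.212), with levels from -3.09 to -2.62 at 3 DPI and from -2.60 to -1.66 at 14 DPI. Without replicate 1 of 14 DPI, limma called all of miR-376a-3p, miR-219a-2-3p, miR-129-2-3p, miR-30b-5p, miR-1198-5p and miR-101c higher, with adjusted p from 0.00461 to 0.0302. Of all miRNAs tested, 14% were called higher without that array.

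**Figure D2:**
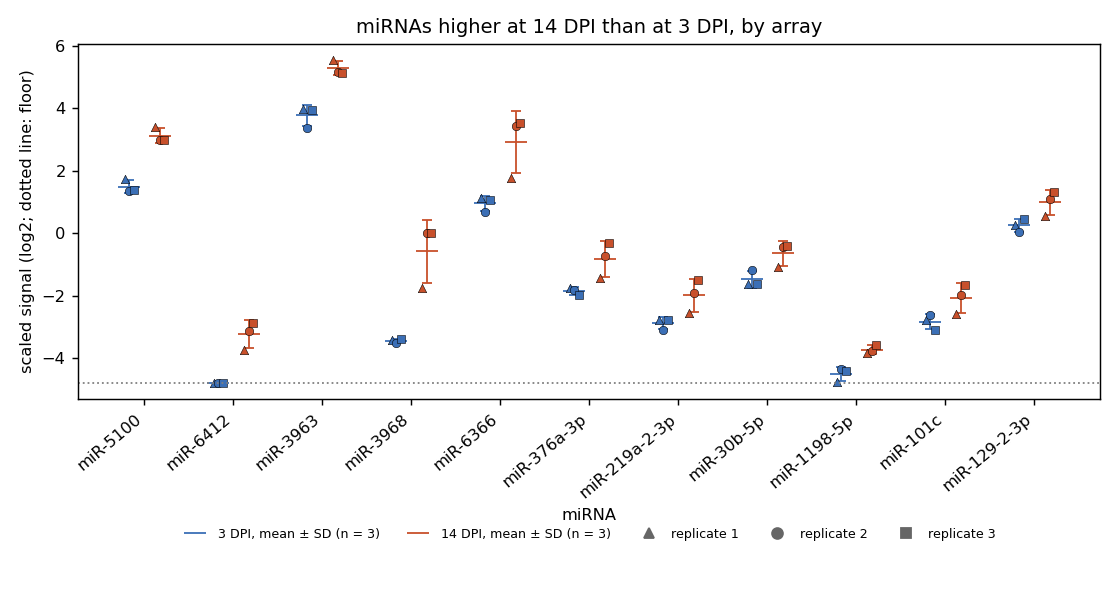
Log2 scaled signal by array for the 3 miRNAs called higher at 14 DPI and for the next 8 with the largest differences upward among those with an unadjusted p under 0.05, arrays that did not overlap and detection on at least 2 arrays of each group, blue for 3 DPI and orange for 14 DPI, with mean ± SD (n = 3 each) and a symbol for each replicate. miR-5100 and miR-3963 have all 3 orange arrays well above the blue ones, while for the others replicate 1 of 14 DPI (triangle) is the lowest orange point.

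Some miRNAs were detected on all 3 arrays of 14 DPI and on none of 3 DPI, 7 of the 485, against 0 in the other direction. Of the 5 brightest at 14 DPI, miR-150-5p, a miRNA of lymphocytes, was at -4.29, -3.26 and -3.76, and at 3 DPI at -4.71 and at the floor on the other 2 arrays. It was at least 1.99-fold higher (limma adjusted p = 0.0995). For miR-1839-3p the bound was at least 1.64-fold (limma adjusted p = 0.15) and for miR-7671-3p at least 1.29-fold (limma adjusted p = 0.0941). For miR-706 and miR-1906 the groups overlapped and no fold is given. miR-706 was above the floor only on replicate 1 of 14 DPI, at -3.92. miR-1906 was at -4.15, -4.78 and -4.40 at 14 DPI and at -4.21 on replicate 3 of 3 DPI, with its partners at the floor. These bounds set the mean of 14 DPI against the floor of -4.79, or against the level of a 3 DPI array where that was higher. The 75th percentile of signal was 588 to 1173 on the 14 DPI arrays against 401.5 to 619.5 at 3 DPI, and the part of this in detection was not tested.

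The miR-200 family, which keeps epithelial cells in their state by silencing the Zeb transcription factors, was lower at 14 DPI in all 5 members measured, although miR-200a-3p and miR-141-3p were at 0.14 and 0.16 when scaling and replicate 1 of 14 DPI were both left out. miR-200c-3p (chr6:124718324-124718346, minus strand) was at -1.49, -1.69 and -3.04 at 3 DPI and at -4.79, -4.22 and -4.02 at 14 DPI, the first of these being the floor. miR-200b-3p (chr4:156055685-156055706, minus strand) was at -0.94, -0.92 and -1.97 and then at -4.38, -2.90 and -2.64. miR-429-3p (chr4:156053916-156053937, minus strand) was at -0.30, -0.35 and -1.53 and then at -3.56, -2.45 and -1.98. In these 3 miRNAs, which share the seed AAUACUG, replicate 3 was the lowest array of 3 DPI, replicate 1 the lowest of 14 DPI, and the groups did not overlap.

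miR-200a-3p (chr4:156054911-156054932, minus strand) was at -1.57, -1.13 and -2.50 at 3 DPI and at -4.57, -3.08 and -2.60 at 14 DPI, so that the groups nearly met. miR-141-3p (chr6:124717917-124717938, minus strand), which shares its seed AACACUG, was at -3.43, -3.32 and -4.55 and then at the floor, at the floor and at -4.45, and here 1 array of each group overlapped. The differences were -2.27 ± 0.47 for miR-200c-3p, -2.03 ± 0.52 for miR-200b-3p, -1.94 ± 0.49 for miR-429-3p, -1.68 ± 0.54 for miR-200a-3p and -0.91 ± 0.37 for miR-141-3p (SE). Their limma adjusted p were 0.082, 0.0995, 0.0995, 0.161 and 0.254, and none was called. All 5 had an unadjusted p under 0.05 and 4 did not overlap, against 9.9% and 7.22% of all miRNAs tested that were lower by these measures, and their median was -1.94 against -0.02 for all miRNAs tested. In such bulk samples, fewer vesicles from 1 cell type and less of the miRNA per vesicle cannot be told apart.

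Replicate 1 of 14 DPI was the lowest array for miR-200b-3p, miR-429-3p, miR-200a-3p and miR-200c-3p, so leaving it out made the differences smaller. They became -2.04 for miR-200c-3p, -1.50 for miR-200b-3p, -1.49 for miR-429-3p, -1.11 for miR-200a-3p and -0.85 for miR-141-3p. The first 2 were then called lower (limma adjusted p = 0.0358 and 0.0464), as were 8.45% of all miRNAs tested. The family median was -1.72 without replicate 1 of 3 DPI. In sham mice miR-200c-3p was at -1.97, -1.32 and -2.77, and at 42 DPI it was at -4.60, -4.62 and -4.79.

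miR-183-5p and miR-96-5p belong to a cluster known from sensory organs such as the retina and the inner ear, and were named for the size of their differences. The third member of the cluster, miR-182-5p, was not tested because no group had it detected on all arrays. miR-183-5p (chr6:30169711-30169732, minus strand) was at -1.54, -1.49 and -3.03 at 3 DPI and at -4.79, -3.67 and -3.46 at 14 DPI. miR-96-5p (chr6:30169506-30169528, minus strand) was at -3.23, -2.24 and -3.23 and then at -4.79, -4.23 and -3.67. Both lie within the span of Mirc35hg, and in both the groups did not overlap. The differences were -1.95 ± 0.53 and -1.33 ± 0.38 (SE), with limma adjusted p of 0.118 and 0.142, and neither was called without replicate 1 of 14 DPI. miR-96-5p was at 0.20 when scaling was left out as well.

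**Figure D3:**
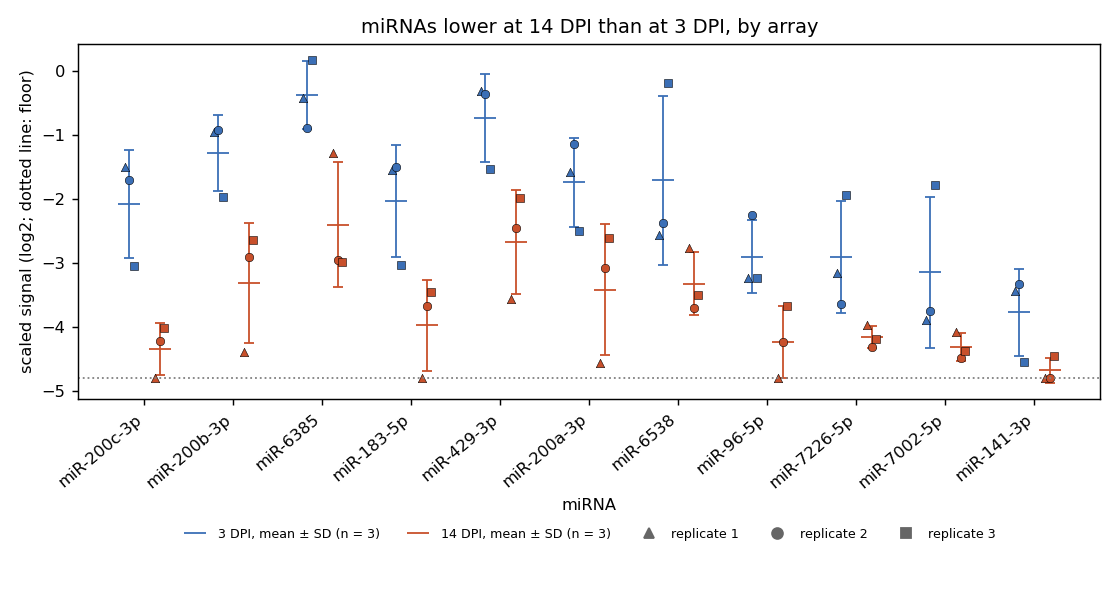
Log2 scaled signal by array for the 10 miRNAs with the largest differences downward under the same limits and for miR-141-3p, blue for 3 DPI and orange for 14 DPI, with mean ± SD (n = 3 each) and a symbol for each replicate. Replicate 1 of 14 DPI (triangle) is the lowest orange point, or ties with it, for the miR-200 family, miR-183-5p and miR-96-5p, and for miR-6538, miR-7226-5p and miR-7002-5p the blue replicate 3 (square) lies above the other blue arrays.

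The other large differences downward with arrays that did not overlap belonged to miRNAs with high numbers in their names, which were annotated late and mostly have no established role. miR-6385 (within the span of Pml) was at -0.41, -0.89 and 0.18 at 3 DPI and at -1.27, -2.95 and -2.97 at 14 DPI, a difference of -2.02 ± 0.59 (SE; limma adjusted p = 0.15). It was -2.59 and called without replicate 1 of 14 DPI (limma adjusted p = 0.0208). miR-6538, miR-7226-5p and miR-7002-5p differed by -1.61, -1.25 and -1.17 (limma adjusted p = 0.214, 0.161 and 0.254), and in each, replicate 3 of 3 DPI was the array that stood highest. In miR-6538 that array was at -0.18 against -2.57 and -2.37 on its partners.

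Of the tested miRNAs with names numbered 3000 and above, 127 had a negative difference and 24 a positive one. Their median was -0.52, against 0.05 for the 330 with lower numbers. In this set 3 were called higher and 0 lower, 6 were higher and 30 lower at an unadjusted p under 0.05, and 6 and 20 did not overlap. Of all miRNAs tested, 9.07% and 9.9% were higher and lower at that level, and 4.54% and 7.22% did not overlap. The median level of the set was -3.49, -3.75 and -2.55 on the 3 DPI arrays and -2.87, -4.32 and -4.21 at 14 DPI. So replicate 3 of 3 DPI and replicate 1 of 14 DPI held the higher levels, and 14 DPI overlapped 3 DPI. The 3 calls, miR-3968 and miR-6366 all belong to this set and went against its median.

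For the same 2 arrays, the departure from their partners was also compared with the GC content of the mature sequence. The other arrays were not examined in this way. Across the 418 miRNAs with a sequence, GC content had a Pearson r of -0.31 and a Spearman rho of -0.44 with the difference between 14 and 3 DPI. The median difference was -0.39 for the 137 miRNAs with 60% GC or more and 0.04 for the other 281. Without replicate 1 of 14 DPI the Pearson r was -0.44 and the Spearman rho -0.53, and these medians were -0.65 and 0.19. Replicate 3 of 3 DPI exceeded the mean of its partners by a median of 0.91 in the GC-rich set, against -0.10 in the rest (r = 0.61). Replicate 1 of 14 DPI exceeded the mean of its partners by 0.90, against -0.55 (r = 0.55). These correlations are across miRNAs, which share arrays and probe chemistry and are not independent. Of the miRNAs named above, miR-6538 had a GC content of 94.7%, miR-6366 one of 72.7%, miR-5100 one of 61.9% and miR-200c-3p one of 43.5%. The part of base composition in any difference was not tested.

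Markers of microglia and myeloid cells were read to check the label of the exosomes, and they did not establish it. Of 8 such miRNAs on the array, 4 were tested. miR-223-3p, of granulocytes and monocytes, was detected on all 6 arrays at -3.94 to -3.74 at 3 DPI and at -4.25 to -3.93 at 14 DPI. miR-342-3p was detected on all 6 as well, at 1.37, 0.89 and -0.06 and then at 0.61, 1.46 and 1.24. miR-142a-3p, a defining miRNA of blood-derived and microglial cells, was detected on 0 of 3 arrays at 3 DPI and 2 of 3 at 14 DPI, and miR-146a-5p, induced by NF-kB, on 1 and 2. The other 4, miR-142a-5p, miR-155-5p, miR-511-3p and miR-511-5p, did not reach detection on all arrays of any group. The median level of the list was near the floor, at -4.33, -4.37 and -4.27 at 3 DPI and at -4.52, -4.37 and -4.19 at 14 DPI. No member differed at an unadjusted p under 0.05 (range -0.22 to 0.37, median 0.09), and none did so without replicate 1 of 14 DPI after adjustment.

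By contrast, all 14 miRNAs of the neuron list were tested. The list had a median difference of 0.15, with 10 members positive and 4 negative, and miR-129-2-3p alone had an unadjusted p under 0.05 (9.07% of all miRNAs tested were higher at that level). The median was 0.42 and 3 members were called higher without replicate 1 of 14 DPI, as were 14% of all miRNAs tested. Its median level was 0.14, 0.15 and 0.11 at 3 DPI and -0.13, 0.34 and 0.67 at 14 DPI, so the groups overlapped through replicate 1 of 14 DPI. miR-128-3p, among the miRNAs most typical of neurons, was at 2.73, 2.80 and 2.44 and then at 2.47, 3.33 and 3.72, a difference of 0.52 ± 0.28 (SE; limma adjusted p = 0.354) that became 0.86 (limma adjusted p = 0.0208) without that array.

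All 4 oligodendrocyte miRNAs were tested and had positive differences, with a median of 0.44, and 2 of them had an unadjusted p under 0.05 (9.07% of all miRNAs tested were higher at that level). Besides miR-219a-2-3p this was miR-219a-5p, at -1.69, -0.93 and -0.89 at 3 DPI and at -1.04, -0.47 and 0.00 at 14 DPI (0.67 ± 0.29, SE; limma adjusted p = 0.262). miR-338-3p differed by 0.21 ± 0.33 (SE; limma adjusted p = 0.762), and miR-338-5p was near the floor throughout. The median of the list lay at -2.23, -2.01 and -1.83 and then at -1.79, -1.19 and -0.74, so the groups nearly met without overlapping. Of the 4 members, 1 had all 14 DPI arrays above all 3 DPI arrays, as had 4.54% of all miRNAs tested. This was miR-219a-2-3p, which had been named partly for arrays that did not overlap. Without replicate 1 of 14 DPI the list's median was 0.73 and 2 members were called higher, as were 14% of all miRNAs tested.

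Vessel and blood markers differed in both directions, and none was called. miR-126a-3p, of endothelium, differed by 0.44 ± 0.23 and miR-143-3p, of smooth muscle, by 0.81 ± 0.34 (SE; limma adjusted p = 0.334 and 0.259), while miR-126a-5p and miR-145a-5p were at the floor on all 6 arrays. miR-145a-3p was not tested. Of 4 erythrocyte miRNAs on the array only miR-486a-5p was tested, at -4.11, -4.45 and -4.00 at 3 DPI and at -4.49 and the floor on the other 2 arrays at 14 DPI (-0.50 ± 0.16, SE; limma adjusted p = 0.161).

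**Figure D4:**
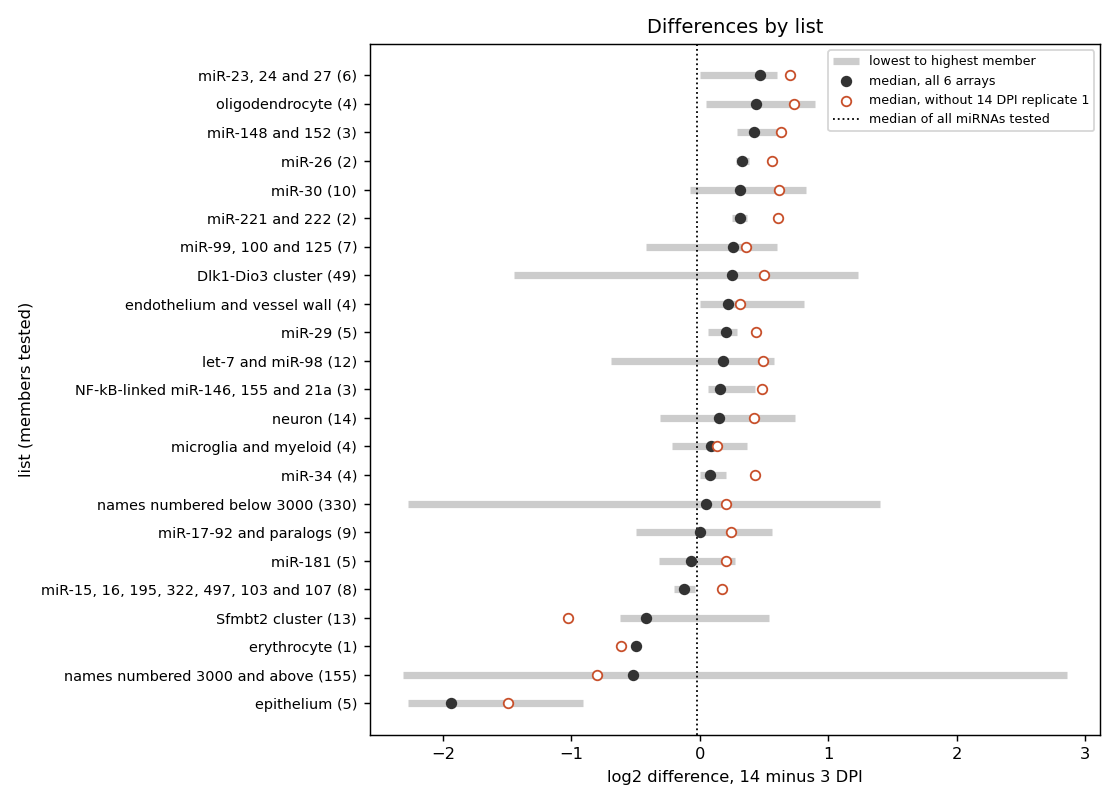
Median log2 difference (14 minus 3 DPI) of each list of miRNAs over all 6 arrays (filled) and without replicate 1 of 14 DPI (open), with the range of members in gray and the number of members tested in parentheses. The epithelium list is lowest at -1.94 and the miR-23, 24 and 27 list highest at 0.47, and most medians above 0 move further from 0 without that array.

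Among the miRNA families, most medians were small. The miR-23, 24 and 27 family, linked to vessels and to immune cells, had a median of 0.47 with 6 of 6 members positive and 3 at an unadjusted p under 0.05, among them miR-23a-3p (0.53 ± 0.23, SE). Of all miRNAs tested, 9.07% were higher at that level. The miR-30 family had a median of 0.31 over 10 members, with miR-30a-5p, miR-30c-5p and miR-30e-5p at 0.53, 0.55 and 0.47 and 3 of 10 at an unadjusted p under 0.05. let-7 and miR-98, a family abundant in differentiated cells, had a median of 0.18 over 12 members and none at that level. When replicate 1 of 14 DPI was left out, the medians of the miR-23, 24 and 27, miR-30 and let-7 families were 0.70, 0.62 and 0.49, with 4, 4 and 5 members called higher. In that setting 14% of all miRNAs tested were called higher, and the median of those with names numbered below 3000 was 0.20. The miR-15 group with miR-103 and miR-107 had 8 of 8 negative differences, from -0.20 to -0.04, none at that level, and its median of -0.12 turned to 0.17 without replicate 1 of 14 DPI. miR-125a-5p differed by -0.42 ± 0.14 (SE; limma adjusted p = 0.161), with arrays that did not overlap, while its family had a median of 0.26. miR-21a-5p, a miRNA raised in many injuries, differed by 0.43 ± 0.29 (SE; limma adjusted p = 0.469). No member of these families was called over the 6 arrays.

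The Dlk1-Dio3 cluster, an imprinted region of chromosome 12 whose miRNAs are expressed from the maternal allele and are abundant in brain, had 49 members tested. Differences were positive for 36 and negative for 11, the median was 0.25, and 8 were higher and 2 lower at an unadjusted p under 0.05, against 9.07% and 9.9% of all miRNAs tested. miR-127-3p was at 0.03, 0.14 and 0.27 at 3 DPI and at 0.29, 0.97 and 1.29 at 14 DPI (0.70 ± 0.21, SE; limma adjusted p = 0.16). miR-434-3p differed by 0.47 ± 0.19 (SE; limma adjusted p = 0.255). miR-494-3p ran the other way, from 5.06, 5.33 and 6.18 to 5.47, 3.22 and 3.52 (-1.45 ± 0.62, SE; limma adjusted p = 0.259), and replicate 1 of 14 DPI was within the range of 3 DPI. Without that array the median was 0.50, and 15 members were called higher and 1 lower, against 14% and 8.45% of all. On GRCm38.p6, with gaps of at most 10000 bases, tested miRNAs of this region formed 2 runs, 12 miRNAs at chr12:109585818-109595387 with a median of 0.27 and 31 at chr12:109709065-109747914 with a median of 0.26.

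Of 11 such genomic runs with at least 3 tested members, the lowest median was that of miR-429-3p, miR-200a-3p and miR-200b-3p at chr4:156053916-156055706, at -1.94, within the span of the lncRNA gene Gm13648. The highest was that of the miR-30c-1 and miR-30e precursors at chr4:120769546-120772681, at 0.35. In the Sfmbt2 cluster, a large group of related miRNAs, 10 of 13 tested members were negative and the median was -0.42, or -1.03 without replicate 1 of 14 DPI. miR-467a-3p went against it, at 3.23, 3.39 and 3.40 and then at 3.44, 3.86 and 4.34 (0.54 ± 0.19, SE; limma adjusted p = 0.199). The median level of the list was highest on replicate 3 of 3 DPI (-1.60) and replicate 1 of 14 DPI (-1.48) and between -3.38 and -2.44 on the other 4 arrays.

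Without replicate 1 of 14 DPI, limma called 109 of the 485 miRNAs, 68 higher (14%) and 41 lower (8.45%), among them the 3 calls made with all arrays. That array had been picked for lying near 3 DPI, so the larger count is no independent support. Of the 68, 62 had names numbered below 3000, as had 330 of the 485 tested, so most would fall there by composition alone. Of the 41 lower, 9 had such names and 32 had names numbered 3000 and above. Replicates 2 and 3 of 14 DPI differed from each other less than any other replicate pair of the 2 groups, with a root mean square difference of 0.214 against 0.449 or more in the other pairs. They were counted as separate samples because the labels list them as such, and whether they share an RNA preparation was not tested. Leaving out replicate 1 of 3 DPI gave 3 calls, the same 3 as with all arrays.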

How the data were processed

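miRNA arrays (Agilent, 1 color) were analysed for 12 samples, 3 each of sham, 3, 14 and 42 DPI. The deposited scanner files hold spot intensities that the authors obtained with Agilent Feature Extraction 10.7.1.1 (submitters' processing notes), background-subtracted within each array and not normalized between arrays. The deposited series table holds log2 values processed by the authors, whose exact scale and centering are not given in the sources used here; every column had a median of -3.32. It served only as an alternative.

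Control and outlier spots were left out, spots of a probe were averaged and probes of a miRNA summed. The 75th percentile of each array, taken over 230 miRNAs that every one of the 12 arrays detected, served as divisor, and log2 values under -4.79 were set to that floor. A miRNA counted as detected when more than 0.5 of the spots of any of its probes were well above background. limma 3.58.1 (R 4.3.3; lmFit and eBayes, two-sided) was fitted to all 12 arrays for 14 minus 3 DPI, with Benjamini-Hochberg adjustment over 485 miRNAs and a threshold of 0.05. The fit was tested on simulated data. Precision is limited by having 3 arrays in each group.

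miR-124-3p was left out: on each of the 9 arrays of injured mice, all 30 of its spots carried scan positions nearest to the grid of another array, and 0 other mouse miRNA spots did.

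Named miRNAs were those called, the 10 largest differences each way among miRNAs with an unadjusted p under 0.05, arrays that did not overlap and detection on at least 2 arrays of each group, those detected on all arrays of 1 group and none of the other (up to 5 each way), members of the cell type lists, and up to 3 of the members with the highest level in each family or cluster. The miRNAs and lists were chosen with earlier results of these data known. Alternatives covered the summary over probes, background, scaling, floor, filter, detection call, samples, slide, replicate number, test and each replicate left out. Sequences, positions and gene spans came from RefSeq (GRCm38.p6), and genes whose span covers a miRNA were read without regard to exons. Python 3.11.15 with pandas 2.3.3 was used for the descriptions.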

Additional observations from a re-analysis of the deposited data

How the results depend on the processing

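The share of miRNAs called, 0.619% with all arrays (3 higher), depended on the processing. It was 1.03% with the software's total gene signal (3 higher, 2 lower), with quantile normalization (4 higher, 1 lower) and with the floor lowered to 0.5 of its value (5 higher). Normexp background correction gave 6.6% (5 higher, 27 lower), the 75th percentile over all miRNAs 2.06% (6 higher, 4 lower) and no scaling 2.89% (14 higher). Among miRNAs detected on all arrays of both groups it was 2.05% of 292, with the software's detection call 1.91% of 575, and with no filter 0.106% of 1880. The deposited table gave 22.1% (64 higher, 43 lower). It was 0 in limma fits of only the 6 arrays (30 at an unadjusted p under 0.05) or only the slide of 14 DPI (85 unadjusted), and 0 after Benjamini-Hochberg with the methods' t-test (31 unadjusted). With slide as a block or miR-124-3p kept, the same 3 were called. With double the floor 3 were called as well, but miR-6412 was replaced by another miRNA. Dropping each of the 6 arrays in turn gave from 0.619% to 22.5%, the latter without replicate 1 of 14 DPI (68 higher, 41 lower). A further 4 settings, all without that array, were chosen after seeing the data, and gave 3.71% with only the 6 arrays, 18.4% with slide as a block, 18.8% with quantile normalization and 53.4% without scaling.

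miRNAs with an unadjusted p under 0.05, 92 with all arrays, numbered 181 without scaling (175 higher, against 44 of 92), 53 with double the floor, 54 for detection in both groups and 173 in the deposited table. Dropping single arrays gave 43 to 224, the lowest without replicate 2 of 14 DPI, with 48 without its replicate 3 and 51 without replicate 3 of 3 DPI. Without replicate 1 of 14 DPI it was 220 with slide as a block, 206 with quantile normalization and 273 without scaling. Arrays that did not overlap, 57 in all, numbered 33 with double the floor, 27 for detection in both groups, 91 on the slide of 14 DPI and 146 in the deposited table. Dropping single arrays gave 57 to 284, and the 4 added settings gave 252, 284, 276 and 312.

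With the software's total gene signal the sign turned for miR-3968 (-4.27), miR-1198-5p (-0.01), miR-150-5p (-0.20), miR-1839-3p (-0.85), miR-7671-3p (-0.55) and miR-143-3p (-0.12). With normexp it turned for miR-1839-3p (-0.26), miR-706 (-0.43) and miR-143-3p (-0.03). miR-223-3p was at 0.12 with the 75th percentile over all miRNAs, 0.10 with quantile normalization, 0.71 without scaling and 0.09 in the deposited table. Without scaling, miR-486a-5p was at 0.31 and miR-125a-5p at 0.51. Dropping single arrays moved miR-342-3p between -0.02 and 0.69 and miR-338-3p between -0.02 and 0.52, the lowest for both without replicate 3 of 3 DPI. Without replicate 1 of 14 DPI, miR-1906 was at -0.09 with slide as a block and miR-223-3p at 0.33 with quantile normalization. Without it and without scaling, miR-200a-3p was at 0.14, miR-96-5p at 0.20, miR-141-3p at 0.16, miR-223-3p at 1.11, miR-486a-5p at 0.48 and miR-125a-5p at 0.86. The cause of these changes was not tested.

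Replicate numbers did not pair the arrays: deviations of arrays with the same number correlated with r of -0.36, 0.80 and -0.77, and the fit with the replicate number as a block called 5 miRNAs (1.03%), all higher. Signal close to the floor limits the dimmest miRNAs, with 39 of the 485 at the floor on all 6 arrays.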
